A study of Mus musculus with 8 samples.

Results

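The miRNAs of the imprinted Dlk1-Dio3 domain were examined in small RNA libraries from 8 whole hearts of wild-type C57Bl6/J mice. The hearts came from 4 female and 4 male animals of 4 to 6 weeks, which the labels call adult, with 1 heart per library and no treatment in either group. RNA shorter than 200 nt was enriched, and reads were counted on hairpin entries of mouse, human and rat. Whole hearts mix cell types, so fewer cells of a type and less RNA per cell cannot be told apart. The members were chosen by name, as 43 mouse hairpins that map to the domain. Of these, 34 had a row among the 500 mouse hairpins listed in at least 1 library, and 28 were listed in all 8 libraries.

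The domain is named for Dlk1 and Dio3, the protein-coding genes at its ends. Its protein-coding genes, Rtl1 among them, are expressed from the paternal chromosome. The non-coding genes Meg3, Rian and Mirg, and the miRNA hairpins on their strand, are expressed from the maternal one. The miRNAs are known for high levels in embryo, placenta and brain. miR-127, miR-136, miR-431, miR-433 and miR-434 lie opposite the Rtl1 transcript and are known to repress it. In mouse heart muscle the locus is a known target of the transcription factor MEF2, and miR-410 and miR-495 have been described as promoting cardiomyocyte proliferation.

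The 43 hairpins span 180.1 kb of chromosome 12, chr12:109563692-109743795 in GRCm38.p6 (RefSeq), with 42 on the plus strand and mir-3071 on the minus strand. The first 13, from Mir770 to Mir370, lie before Mir379, and 10 of them were listed. The other 30 run from Mir379 to Mir410, and 24 of them were listed. In the gene annotation, Mir431, Mir433, Mir127, Mir434 and Mir136 lie opposite the Rtl1 exon. Mir341 and Mir370 lie in introns of Rian. Mir382, Mir134, Mir668, Mir485, Mir369 and Mir410 lie in exons and Mir154, Mir541 and Mir409 in introns of Mirg.

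The 10 most abundant arms carry most counts of the cluster, and the seed of each is the stretch by which a miRNA mainly pairs with its targets. Their mature sequences are given as RefSeq lists them for GRCm38.p6, 5′ to 3′, with the seed (bases 2 to 8) in capitals.
miR-127-3p: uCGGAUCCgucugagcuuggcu
miR-381-3p: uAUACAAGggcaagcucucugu
miR-379-5p: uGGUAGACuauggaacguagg
miR-434-5p: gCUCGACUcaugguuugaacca
miR-411-5p: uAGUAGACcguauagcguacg
miR-541-5p: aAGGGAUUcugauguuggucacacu
miR-300-3p: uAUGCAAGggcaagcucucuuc
miR-370-3p: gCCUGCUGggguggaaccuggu
miR-543-3p: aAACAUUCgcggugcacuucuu
miR-134-5p: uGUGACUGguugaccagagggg

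No seed is shared among these 10. The closest pair is miR-381-3p and miR-300-3p, which match at 19 of 22 positions. Counted from 1 at the 5′ end, with the base of miR-381-3p first, they differ by A4G, G21U and U22C, so 1 difference falls in the seed. Over the 82 mature arms that RefSeq lists for the 43 hairpins there are 79 distinct seeds, and 3 seeds occur in 2 arms each. A shared seed with counts on both arms was found once, in the neighbours Mir379 and Mir411.
miR-379-3p: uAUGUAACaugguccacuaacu
miR-411-3p: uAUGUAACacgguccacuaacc
These differ by U10C and U22C, with the base of miR-379-3p first. They held 742 and 120 counts over the 8 libraries, of which 86.3% and 16.7% were unique to 1 entry. The counts of miR-411-3p in particular cannot be assigned with certainty. The arms miR-485-5p, miR-376c-3p and miR-487b-3p were counted and are given by name only.

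The libraries held 29900500 to 38894987 counts, of which 52374 to 66097 fell on mature arms of the cluster. The markers of heart cell types were present in every library. Their sums take mouse entries alone, so counts of a marker on a human or rat entry are left out. Summed levels, in CPM (counts divided by library size and given on a common scale) after scaling by the trimmed mean of M values (TMM), were 3908 to 9762 for the 5 cardiomyocyte hairpins, 52813 to 119210.4 for the endothelial mir-126a and 2844 to 6999.8 for the stromal mir-199a, mir-199b and mir-214. Of the 4 neural hairpins looked for, mir-9 and mir-128 were counted, and mir-124 and mir-137 had no mouse row. The neural sum was 1053 to 2338 CPM in the female and 2004 to 3062 CPM in the male hearts. The erythroid sum varied more, at 51.8 to 212.8 CPM in the female and 143.1 to 1138.2 CPM in the male hearts. Smooth muscle hairpins summed to 33772 to 50779 CPM. Epithelial hairpins summed to 32.6 to 62.6 CPM, highest in female replicate 2. The liver hairpin mir-122 stood at 1.06 to 7.13 CPM. Female replicate 3 stood apart by its TMM factor of 1.40, against 0.875 to 1.06 in the other hearts.

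Of the 68 arms of the 34 listed hairpins, 46 had counts and 22 had none. In all 8 hearts 36 arms reached at least 10 counts. In the columns of uniquely assigned reads the deposited values skip 1 to 9, while 1382 of them lie from 10 to 19, so an arm at 0 has no upper limit that can be stated. The hairpins with no mouse row were mir-376a, mir-377, mir-494, mir-496a, mir-539, mir-540, mir-665, mir-758 and mir-770. mir-494 and mir-540 had rows in the rat entries, with 623 and 180 counts on the 3′ arm over the 8 libraries, so 36 of the 43 names were found in some species. The weakest listed hairpins were mir-380, mir-667, mir-668 and mir-487b, with 10, 11, 11 and 22 mature counts in all.

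Levels among hairpins of this 1 locus spread over more than 3 orders of magnitude. miR-127-3p, an arm opposite Rtl1, averaged 938 ± 193 CPM (SD, n = 8), and miR-485-3p, the lowest of the 36 arms with at least 10 counts in every heart, averaged 0.484 ± 0.19 CPM (SD, n = 8). The ratio of these means was 1940.3, over all mature reads on mouse entries. Of the counts of miR-127-3p, 9.14% matched its mature sequence exactly. The mouse entry of miR-485-3p held 121 counts, 0 of them exact, and human and rat entries of mir-485 held 394 more on the 3′ arm. A mean of at least 100 CPM was reached by 3 arms, at least 10 CPM by 13, and 1 to 10 CPM by another 20. The other 13 counted arms averaged under 1 CPM, and the median of the 46 was 2.27 CPM. Among the 640 counted arms of mouse entries, miR-127-3p ranked 59, miR-381-3p 102 and miR-3071-5p, the last of the 13, ranked 250.

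**Figure D1:**
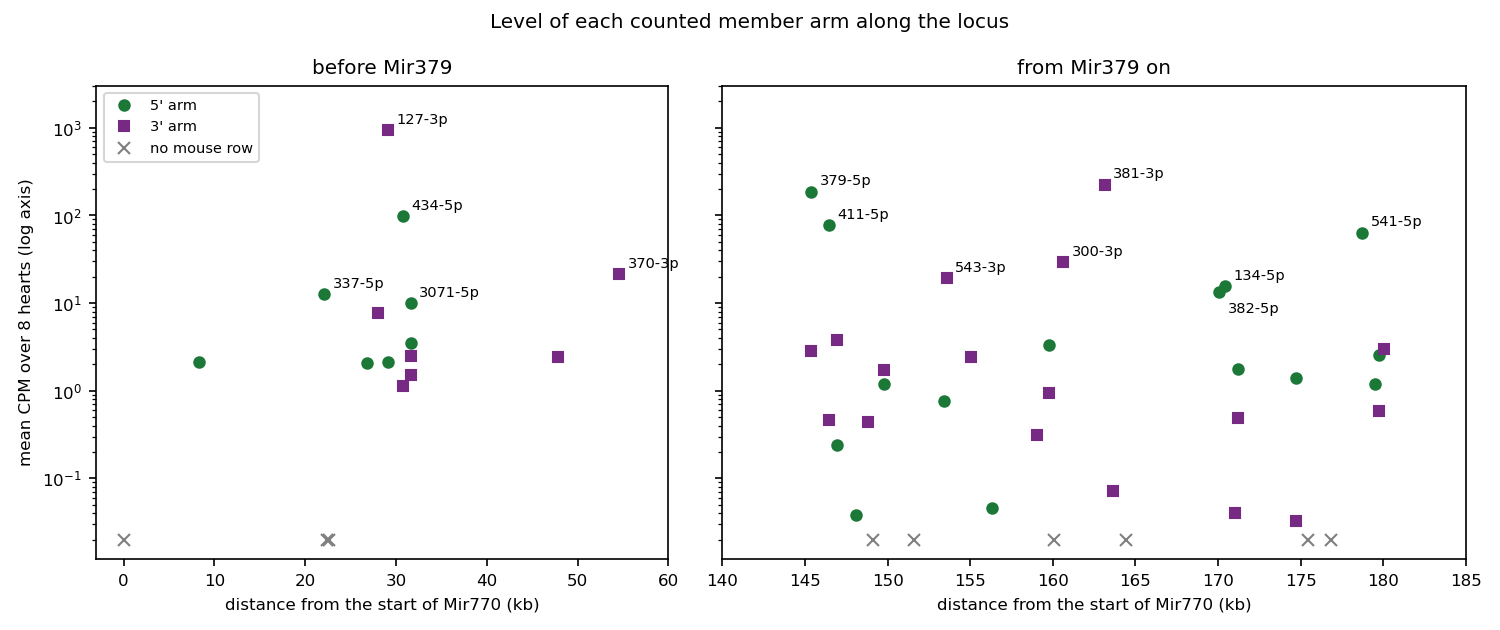
Mean CPM over 8 hearts (log axis) of each of the 46 counted arms against the distance of its hairpin from the start of Mir770 in kb, with circles for 5′ arms, squares for 3′ arms and crosses at the bottom for the 9 hairpins with no mouse row. The arms with at least 10 CPM are named, and high and low arms lie side by side in both stretches of the locus.

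miR-127-3p held 52.8% ± 3.31 of the mature counts of the cluster (SD, n = 8), from 46.8% to 56.8% across hearts. It stood at 1172, 643, 723 and 1125 CPM in female replicates 1 to 4 and at 1034, 976, 804 and 1029.8 CPM in male replicates 1 to 4. The lowest and highest hearts were thus both female, and the male hearts lay between them. Its hairpin neighbour on the same stretch, miR-434-5p, stood at 115, 81.7, 74.5 and 93.0 CPM in the female and 91.8, 104, 94.3 and 133 CPM in the male hearts. miR-370-3p, from an intron of Rian and described as acting on lipid metabolism in liver cells, averaged 21.6 ± 4.91 CPM (SD, n = 8).

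The arms from Mir379 on were led by miR-381-3p, at 323, 160.2, 143 and 199 CPM in the female and 219, 283, 179.5 and 296 CPM in the male hearts. miR-379-5p, the first hairpin of that stretch, was steadier, at 195, 170.0, 149 and 226 CPM in the female and 202, 182, 189 and 184 CPM in the male hearts. The SD of log2 CPM over the 8 hearts was 0.43 for miR-381-3p and 0.18 for miR-379-5p. miR-381-3p had the largest such SD among the 13 arms with at least 10 CPM, followed by miR-411-5p at 0.41. miR-411-5p stood at 68.0, 96.2, 42.1 and 81.2 CPM in the female and 59.4, 94.3, 90.7 and 90.3 CPM in the male hearts. The median SD was 0.31 over these 13 arms and 0.33 over the 250 mouse arms with at least 10 CPM.

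miR-541-5p, described as restraining hypertrophic growth of cardiomyocytes, averaged 63.6 ± 10 CPM (SD, n = 8). miR-300-3p averaged 29.3 ± 3.33 CPM, miR-543-3p 19.2 ± 3.93 CPM and miR-134-5p, known in rat neurons for its action on dendritic spines, 15.5 ± 2.09 CPM (SD, n = 8). At the low end of the arms with at least 10 counts in every heart stood miR-329-5p, miR-434-3p, miR-376b-3p, miR-666-5p and miR-485-3p. These 5 averaged 1.18, 1.12, 0.949, 0.76 and 0.484 CPM. The cardiomyocyte-linked miR-410-3p and miR-495-3p were also low, at 3.03 ± 0.81 and 2.43 ± 0.749 CPM (SD, n = 8).

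**Figure D2:**
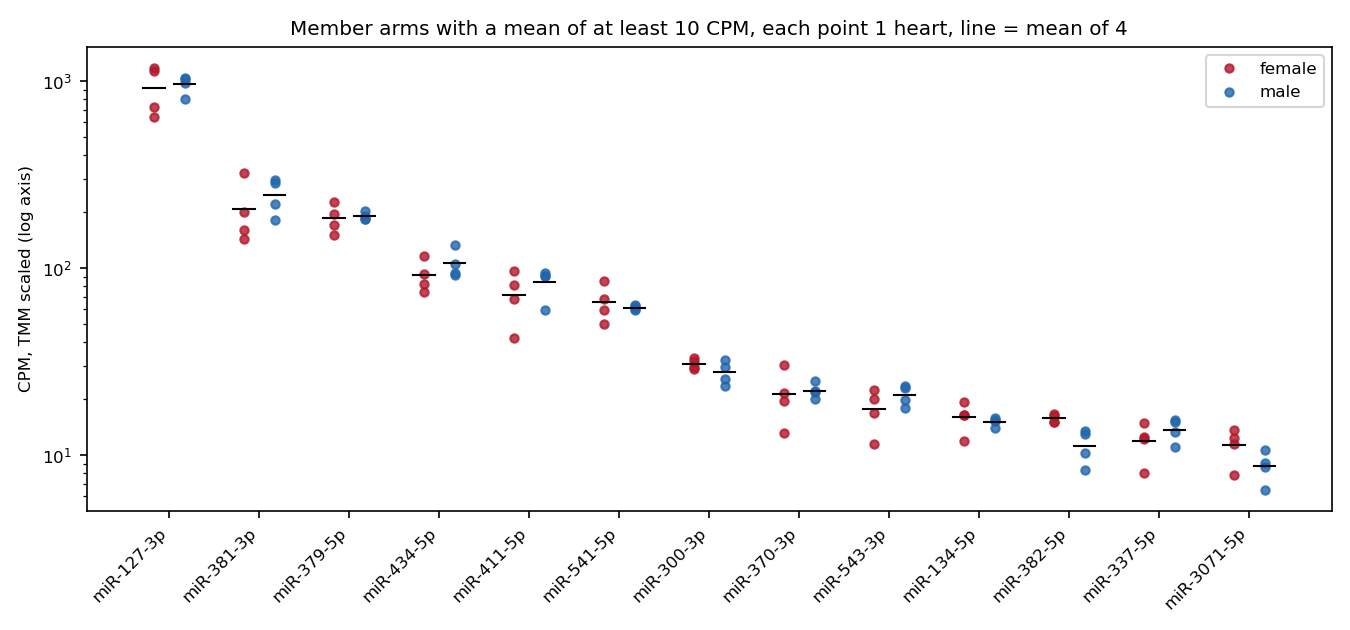
TMM-scaled CPM (log axis) of the 13 member arms with a mean of at least 10 CPM, each point 1 heart, female in red and male in blue, with a line at the mean of 4. The points of the sexes overlap for every arm shown except miR-382-5p, where the 4 female hearts lie above the 4 male hearts.

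The order of the leading arms depended on which reads were counted. The tables also give reads that match a mature sequence exactly. By these, miR-127-3p had 22002 of its 240830 counts exact (9.14%), while miR-381-3p had 44032 of 57012 (77.2%) and miR-379-5p 24708 of 48740 (50.7%). Of exact counts on the cluster, miR-381-3p held 33.9%, miR-379-5p 19% and miR-127-3p 16.9%. miR-541-5p had 0 exact among 16604 counts. Over the 39 member arms with at least 100 counts the median exact share was 31.7%, and 10 arms had 0 exact. Over the 469 mouse arms with at least 100 counts the median was 25.1%, and 73 arms, or 15.6%, had 0 exact. The tables do not say whether inexact reads differ in length or in sequence.

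mir-541 had the largest share of reads outside its mature arms among the 34 hairpins. It held 26068 such reads, 61.1% of all its reads, and 20990 of those are listed as exact. The next shares were 33.6% for mir-341, 17.5% for mir-666, 12.3% for mir-369 and 10.8% for mir-134. For mir-127 the share was 2.59%, for mir-379 6.56% and for mir-381 0%.

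Most hairpins were counted mainly on 1 arm. Counts fell on the 5′ arm alone in 10 hairpins, on the 3′ arm alone in 12 and on both in 12. Some hairpins with 1 counted arm held few counts, as mir-380, mir-667, mir-668 and mir-487b did with 10 to 22 in all. In these, 0 on the other arm says little. A rat mir-380 entry held 57 counts on the 3′ arm, where the mouse entry held 10 on the 5′ arm. The 5′ arm held more counts in 19 hairpins and the 3′ arm in 15, so no 1 arm was shared across the locus. The hairpins counted most one-sidedly on the 5′ arm were mir-541, mir-134 and mir-382, with 16604, 4093 and 3580 counts against 0 on the 3′ arm. On the 3′ arm these were mir-381, mir-300 and mir-370, with 57012, 7720 and 5552 counts against 0 on the 5′ arm.

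Where both arms were counted, the major arm exceeded the minor by at least 10 times in 6 of the 12 hairpins and by under 3 times in 2. mir-127 had 240830 counts on the 3′ and 570 on the 5′ arm, a ratio of 423. mir-411 had 20264 on the 5′ and 120 on the 3′ arm, mir-434 had 25364 and 292, and mir-379 had 48740 and 742. The hairpins nearest to equal arms were mir-329, mir-136 and mir-376b, at 39.7%, 69.9% and 77.4% of counts on the 5′ arm. The 5′ share of mir-329 ran from 17.3% to 59.0% over the hearts. Its 5′ arm led in male replicate 4 alone, at low counts of 62 against 43 on the 3′ arm.

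Rat entries of the same names changed some of these ratios. A rat mir-411 entry held 2494 counts on the 3′ arm, and adding it lowered the ratio of the mir-411 arms from 169 to 7.75. A rat mir-127 entry held 2510 counts on the 5′ arm, which lowered the ratio of mir-127 from 423 to 78.2. With human and rat entries added, the arms of mir-485 were near equal, with 471 counts on the 5′ and 515 on the 3′ arm, where the mouse entry alone gave 471 and 121. Over the whole cluster these entries added 2.36% to the mature counts, including 2 rat copies of mir-434 with 1758 and 1756 counts that may be the same reads.

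**Figure D3:**
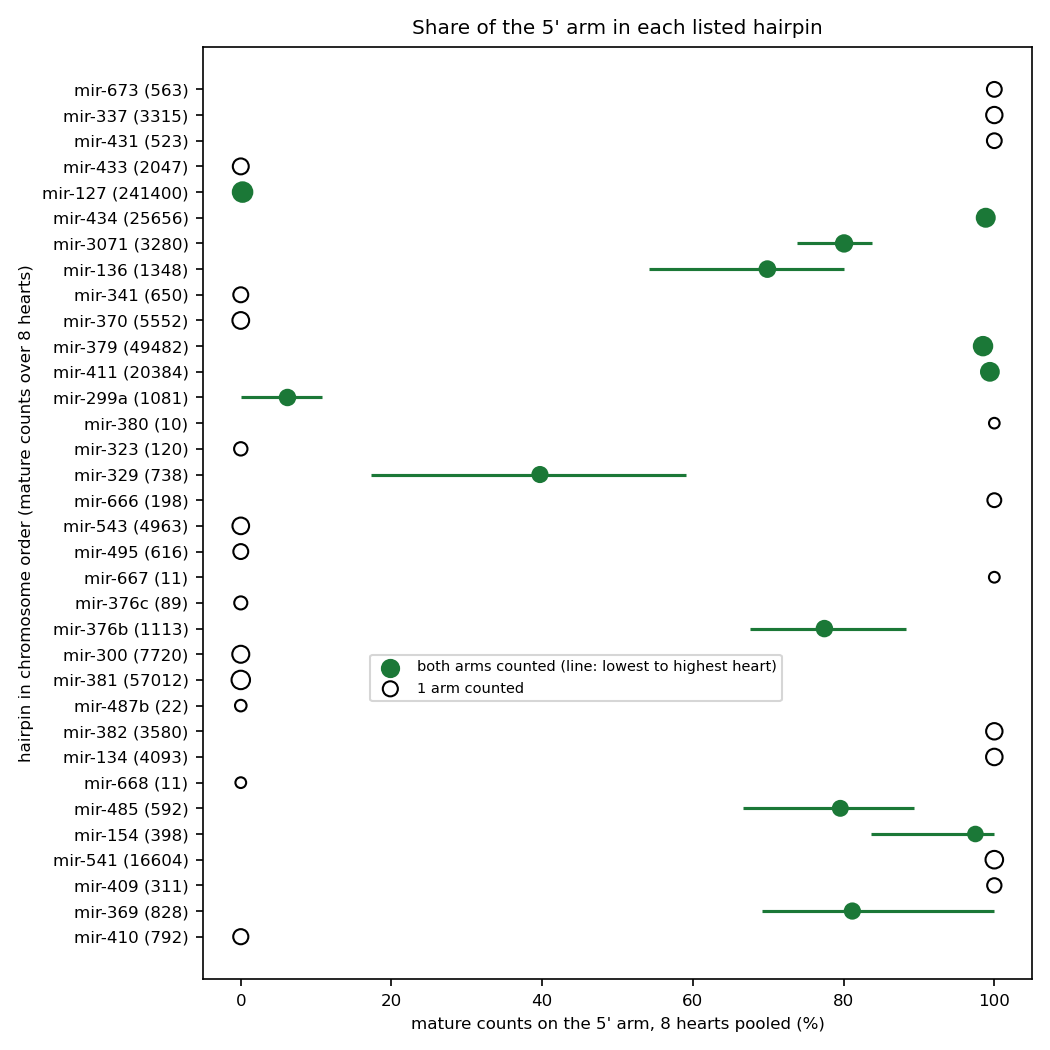
Percent of mature counts on the 5′ arm of each of the 34 listed hairpins in chromosome order, over the 8 hearts pooled, with larger points for more counts. Filled points are the 12 hairpins with both arms counted, with a line from the lowest to the highest heart, and open points are the 22 hairpins with 1 counted arm. Hairpins counted on the 5′ and on the 3′ arm are interspersed along the locus.

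mir-136 and mir-3071 are read from opposite strands of the same DNA. The mir-136 hairpin, chr12:109595327-109595388 on the plus strand (GRCm38.p6), is 62 nt long and lies wholly within the 80 nt of mir-3071, chr12:109595318-109595397 on the minus strand. The mature arms face each other, and the overlap that is the exact reverse complement of the partner is shown in capitals.
miR-136-5p: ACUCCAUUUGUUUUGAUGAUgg
miR-3071-3p: AUCAUCAAAACAAAUGGAGUcc
miR-136-3p: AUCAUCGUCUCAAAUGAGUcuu
miR-3071-5p: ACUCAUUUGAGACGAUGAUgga
The first pair overlaps by 20 nt and the second by 19 nt. Whether reads were counted by strand is not given in the sources used here, so the reads of these partners cannot be assigned with certainty.

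Of the 4 arms, miR-3071-5p was the most abundant, at 12.3, 13.6, 7.78 and 11.5 CPM in the female and 6.53, 10.7, 9.02 and 8.67 CPM in the male hearts. Its partner miR-136-3p stood at 1.46, 2.99, 1.17 and 1.54 CPM in the female and 0.502, 1.69, 1.17 and 1.61 CPM in the male hearts. miR-136-5p stood at 1.73, 5.43, 4.42 and 2.42 CPM in the female and 2.01, 3.55, 2.67 and 5.62 CPM in the male hearts. Its partner miR-3071-3p stood at 2.84, 3.02, 1.5 and 3.51 CPM in the female and 2.31, 2.42, 2.70 and 1.75 CPM in the male hearts. The sexes overlapped for all 4 arms, and miR-3071-5p was above the other 3 in every heart.

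miR-136-5p had 845 of 942 counts exact (89.7%). None of the 406 counts of miR-136-3p, the 2626 of miR-3071-5p or the 654 of miR-3071-3p matched exactly. All counts of the 4 arms were unique to 1 entry. In total mir-3071 held 3280 and mir-136 1348 mature counts, so the hairpin on the Rtl1 strand had more mature counts listed than the hairpin opposite Rtl1, with no exact read on its mature arms.

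No member arm passed the adjusted threshold between female and male hearts. The test covered 703 arms of all entries, of which 41 were members. The quasi-likelihood test of edgeR with Benjamini-Hochberg adjustment called 0 of the 41 members and 0 of the 703 arms (0%) at an adjusted p of 0.05. At an unadjusted p of 0.05 it called 1 member, which was higher in female hearts, against 40 of all arms (5.69%), with 3.7% of all arms higher and 1.99% lower. Under the same test, 22 members were higher and 19 lower in female hearts, against 49.8% of all arms higher. The median fold change, female minus male, was 0.01 on the log2 scale over the members and -0.00 over all arms, and the median standard error of a member was 0.31. DESeq2 and limma-voom also called 0 members, with 1 and 2 at an unadjusted p of 0.05.

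The member with the smallest p was miR-382-5p, encoded in an exon of Mirg. It stood at 16.2, 15.1, 15 and 16.6 CPM in the female and 8.27, 13.4, 13.0 and 10.3 CPM in the male hearts, so the groups did not overlap. The log2 fold change was 0.49 ± 0.20 (SE), with an unadjusted p of 0.0358 and an adjusted p of 0.827 in edgeR, and over the alternatives the adjusted p ran from 0.566 to 0.977. miR-154-5p, from an intron of Mirg, was the other member whose groups did not overlap, at 1.34, 1.34, 2.89 and 1.63 CPM in the female and 1.27, 1.26, 0.645 and 0.925 CPM in the male hearts. On the log2 scale it was higher by 0.82 ± 0.39 in the females (SE), with an adjusted p of 0.827 by edgeR. This value was 0.49 without female replicate 3, the heart at 2.89 CPM, and 0.53 with exact matches alone. Of all 703 arms, 3.7% had groups without overlap, with the female hearts above in 2.84% and below in 0.853%.

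The next smallest p belonged to miR-431-5p, which acts on satellite cells of mouse skeletal muscle, to miR-433-3p, described in cardiac fibrosis in mice, and to miR-495-3p. Their log2 fold changes were -0.64 ± 0.37, 0.35 ± 0.21 and -0.50 ± 0.31 (SE), each with an edgeR adjusted p of 0.827. The value of miR-431-5p was -1.07 without female replicate 1, -0.41 without female replicate 3 and -1.08 with exact matches. That of miR-495-3p was -0.80 without female replicate 1 and -0.32 without female replicate 3. For miR-431-5p the males were close together, at 2.36 to 2.71 CPM, while the females ran from 0.799 to 2.80 CPM. miR-127-3p was nearly level between the sexes, at -0.07 ± 0.22 on the log2 scale (SE, adjusted p = 0.966 by edgeR), and this value turned positive in 4 alternatives.

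As a whole the cluster took up 0.177% ± 0.0258 of the mature reads of the females and 0.174% ± 0.0132 of those of the males (SD, n = 4; two-sided exact permutation test over 70 arrangements, p = 1.0, smallest possible 0.0286). By heart the share was 0.191%, 0.139%, 0.190% and 0.189% in the female and 0.161%, 0.192%, 0.1695% and 0.172% in the male replicates. Female replicate 2 lay lowest of all 8. That heart also had the highest summed stromal markers, 6999.8 CPM against 2844 to 3885 in the other hearts. Its cardiomyocyte markers, 9762 CPM over mouse entries, were also the highest. Their part in its low share was not tested. At least 10 counts were reached by 38, 42, 41 and 41 member arms in the female and 38, 41, 42 and 39 in the male hearts (two-sided exact permutation test, p = 0.943).

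No member hairpin passed the test of the arm balance between the sexes. None of the member hairpins had a mean of at least 100 counts on each arm, the minimum set for the main test, in which 1.25% of hairpins were called, so 7 of them were examined at a mean of at least 20. These were mir-127, mir-136, mir-3071, mir-329, mir-376b, mir-379 and mir-434. With limma on the log2 ratio of 5′ to 3′ counts, 0 of the 7 and 0 of the 106 hairpins tested (0%) passed an adjusted p of 0.05. Of the 106, 6.6% had an unadjusted p under 0.05, and none of the 7 did. The smallest p among the 7 was that of mir-329, with a log2 ratio of -1.20 ± 0.911 among females against -0.27 ± 0.607 among males (SD, n = 4; limma unadjusted p = 0.081, adjusted p = 0.613).

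Whether the hairpins of the locus varied together over hearts was examined next. The hairpins before Mir379 summed to 1366, 789, 859.8, 1295, 1186, 1151, 972 and 1233 CPM in female replicates 1 to 4 and then male replicates 1 to 4. The hairpins from Mir379 on summed to 769.6, 586, 495, 705, 635, 733, 630.1 and 735 CPM in the same order. The first sum averaged 1106 CPM, of which miR-127-3p alone averaged 938 CPM. The second averaged 661 CPM, of which miR-381-3p and miR-379-5p averaged 225 and 187 CPM. Each sum thus mainly follows its leading arms. Female replicates 2 and 3 were the 2 lowest in both sums and female replicate 1 the highest in both.

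On the log2 scale these sums correlated with r = 0.85 (exact permutation p = 0.00694, adjusted over 4 relations p = 0.0278, n = 8) and rho = 0.86 (exact permutation p = 0.0107, adjusted p = 0.0429). Without the 2 hearts farthest from the median, female replicates 2 and 3, r was 0.73. With levels centred on the mean of each sex r was 0.84 (exact permutation, adjusted p = 0.041). The call on r was lost with libraries scaled by size alone, at r = 0.66 (exact permutation, adjusted p = 0.307), and with the most abundant arm left out of each sum, at r = 0.60 (exact permutation, adjusted p = 0.429). It was also lost without female replicate 1, female replicate 4, male replicate 3 or male replicate 4, at r = 0.81, 0.85, 0.85 and 0.84 with adjusted p of 0.0536, 0.073, 0.0762 and 0.0714 by exact permutation. The call on rho held without female replicate 4 or male replicate 2, with an adjusted p of 0.027 for each, and was lost without each of the other 6 hearts, at adjusted p of 0.0952 to 0.192 by exact permutation. It was also lost with the mean log2 level over arms of at least 10 CPM (exact permutation, adjusted p = 0.112), with library size alone and without the leading arms. The call on r held with that mean log2 level, at r = 0.94 (exact permutation, adjusted p = 0.00466). Of the 8 hearts, male replicate 2 was the only one without which both calls held.

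The summed cluster was not related past the threshold to 3 other groups of hairpins. Against the mir-17 to mir-92a group r was 0.67 and rho 0.57 (exact permutation, adjusted p = 0.134 and 0.302, n = 8), and without the 2 farthest hearts r was 0.03. Without female replicate 1 that r was 0.85 (exact permutation, adjusted p = 0.0254), and without the most abundant arm of each sum it was -0.09. Against the mir-322 to mir-450 group r was -0.49 and rho -0.36 (exact permutation, adjusted p = 0.227 and 0.389), and r was -0.66 without the 2 farthest hearts. Without female replicate 3 that r was -0.88 (exact permutation, adjusted p = 0.0179). Against the stromal mir-199 and mir-214 group r was -0.59 and rho -0.36 (exact permutation, adjusted p = 0.147 and 0.389), and r was 0.28 without the 2 farthest hearts. The difference between these relations was not tested.

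Arm by arm the joint variation was uneven. Over the 78 pairs of the 13 arms with at least 10 CPM the median Pearson r over hearts was 0.27, and 54 pairs were above 0. Over the 31032 pairs of different hairpins among 250 mouse arms the median was 0.03, and 51.8% of pairs were above 0. All pairs share the same 8 libraries, so these are descriptions. With library size alone the medians were 0.22 and 0.19. The highest r was 0.92, between miR-381-3p and miR-434-5p, which lie in different stretches of the locus. The lowest was -0.74, between miR-411-5p and miR-134-5p. The median r was 0.39 over 10 pairs within the hairpins before Mir379, 0.06 over 28 pairs within those from Mir379 on, and 0.34 over 40 pairs between the stretches.

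Averaged over the 13 arms, the log2 level relative to the mean of each arm was 0.20, -0.13, -0.29 and 0.16 in female replicates 1 to 4 and -0.13, 0.09, 0.03 and 0.08 in male replicates 1 to 4. In female replicate 3, 2 of the 13 arms were above their own mean, and in female replicates 1 and 4, 11 were. With library size alone, without TMM, the average of female replicate 3 was 0.19 and 9 of the 13 arms were above their mean. Its low level on the TMM scale thus moved with its TMM factor of 1.40. On the scale of library size the lowest heart was male replicate 1, at -0.31, with 0 of the 13 arms above their mean.

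**Figure D4:**
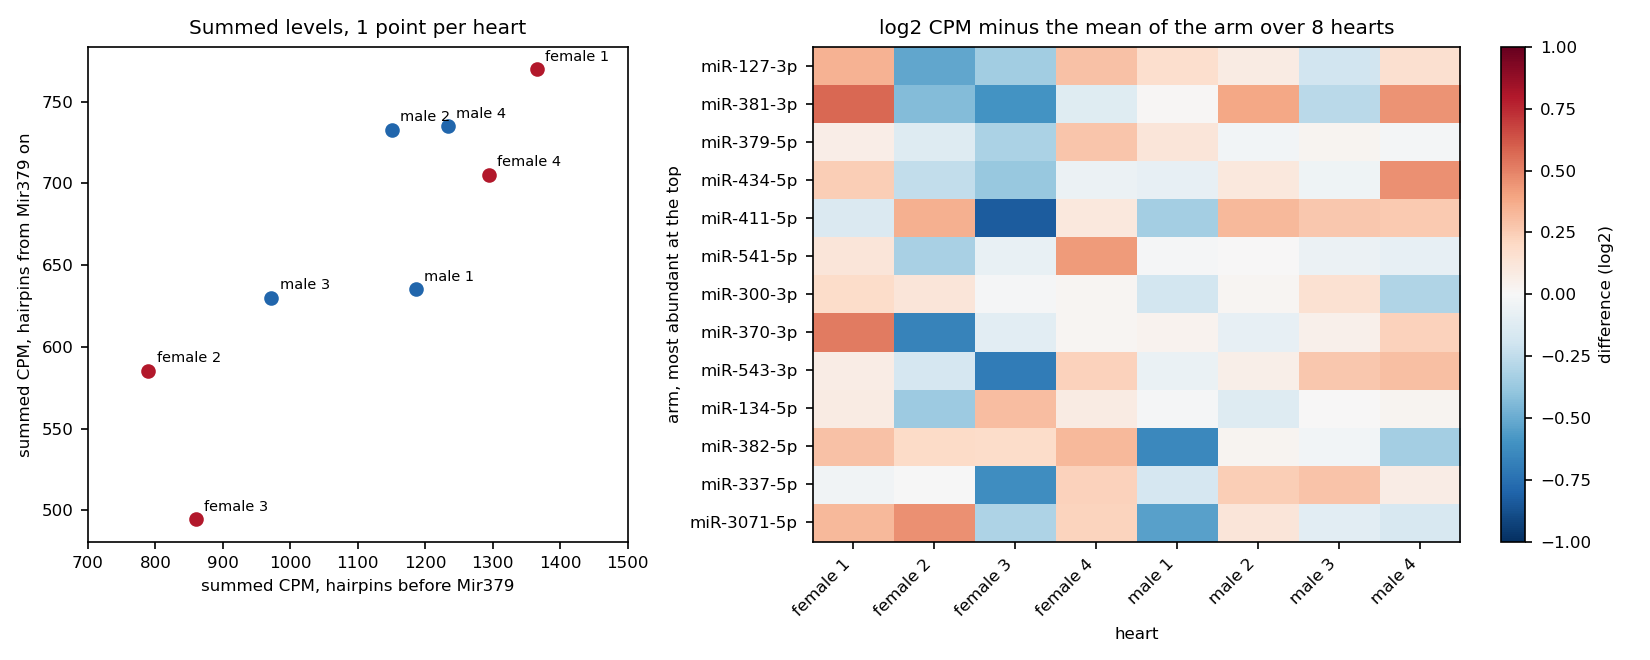
Left, summed CPM of the hairpins from Mir379 on against those before Mir379, 1 point per heart (female red, male blue), with female replicates 2 and 3 at the lower left and female replicate 1 at the upper right. Right, log2 CPM of each of the 13 arms with at least 10 CPM minus its mean over the 8 hearts, red above and blue below the mean.

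The weight of the leading arm was also set beside that in the other groups, as a description. miR-127-3p held 53.1% of the summed mean CPM of the cluster, and its 5 leading arms held 86.4%. In the mir-17 to mir-92a group the leading entry, miR-92a-1-3p, held 75.7%, in the mir-322 to mir-450 group miR-351-5p held 18.2%, and in the mir-199 and mir-214 group miR-199a-2-3p held 25.9%. Numbered copies of a hairpin in these groups can share reads.

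Few other hairpins of the locus were listed. Of 21 further mouse hairpins looked for in or beside the domain, 15 are annotated between the members and 3 of these had a row. mir-493 held 55 counts on its 5′ arm in 5 hearts, mir-1193 held 15 on its 3′ arm in 1 heart and mir-679 held 10 reads outside its mature arms in 1 heart. A rat entry of mir-299b held 1437 counts in all 8 hearts, 0 of them exact, where no mouse row was listed. mir-342 and mir-345, beside the cluster and outside the span of the members, held 8539 and 9330 counts on their 3′ arms.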

How the data were processed

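Small RNA libraries of 4 female and 4 male hearts were used, 1 table per heart. Per the file headers, the deposited counts are reads on the 5′ mature arm, the 3′ mature arm and the rest of each hairpin entry of mouse, human and rat, with columns for exact matches and for reads unique to 1 entry. The submitters' processing notes name STAR and mm10. For the counting tool, its filters and its use of strand, these sources give nothing. The members and lists were chosen with earlier results of these data known.

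Each entry and arm was 1 feature, and human and rat rows were kept apart. Arms were tested with edgeR 4.0.16 (glmQLFit and glmQLFTest, TMM, sex alone) after filterByExpr (counts of at least 10, total of at least 15), adjusted by Benjamini-Hochberg over all 703 arms. Standard errors are the fold change divided by the root of the F value. Arm ratios used limma 3.58.1 with a pseudocount of 0.5. Shares and numbers of arms used exact permutation tests (scipy 1.17.1), and correlations used an exact permutation over all orderings of the hearts. DESeq2 1.42.0, limma-voom and other scalings were alternatives. The fits were tested on simulated data. Libraries held 29900500 to 38894987 counts, of which 29169537 to 37791810 on mature arms, so precision was limited for arms under about 1 CPM. Each library is 1 heart, so the tests take separate animals as the replicates. Positions and sequences are RefSeq, GRCm38.p6, the assembly of mm10, and host genes are GENCODE vM21. Of 46 counted arms, 43 matched a sequence. The named arms are the 10 highest, the 5 lowest with at least 10 counts in all hearts, the 5 with the smallest p, the arms of mir-136 and mir-3071, the 5 with the largest SD, the 3 hairpins at each end of the arm ratio and the 3 nearest to equal. Others are named for a count or background and were chosen after their values were seen.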

Additional observations from a re-analysis of the deposited data

Results flagged for a closer look

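Over 52 groups of 4 hearts (24 named arms, the share of the cluster and the number of arms found, in each sex), 2 groups had 1 heart set apart from the other 3 by Dixon's test. Chance sets apart about 1 in 20 groups, or 2.6 of 52.

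The share of the cluster in mature counts was 0.139% in female replicate 2, against 0.189% to 0.191% in the other female hearts. miR-411-5p stood at 59.4 CPM in male replicate 1, against 90.3 to 94.3 CPM in the other male hearts.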

How the results depend on the processing

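No member arm was called between the sexes under any scaling, filter, tool, read class or left-out heart that was run. No member hairpin reached a mean of 100 counts on each arm, so their arm balance was tested at a mean of 20, where 0 of 7 were called. At that minimum no member was called with a pseudocount of 5, a replicate block or 1 heart left out. The lowest adjusted p was 0.315, for mir-329 without female replicate 1 (limma unadjusted p = 0.0147). Without female replicate 3, mir-136 had a limma unadjusted p of 0.0164 and an adjusted p of 0.678. Over all arms, the count of 0 became 1 with upper quartile factors, 3 with DESeq2, 1 with a minimum of 10 CPM in 4 libraries and 0 to 1 without 1 heart (1 without female replicate 3). Over all hairpins, the arm balance gave 1 call at a mean of 100 counts, 0 at a mean of 20, and 0 to 1 without 1 heart. miR-127-3p turned from a log2 fold change of -0.07 to 0.045 with library size alone, to 0.23 with exact matches, to 0.067 without female replicate 2 and to 0.028 without female replicate 3. Its share of the cluster fell from 52.9% to 16.9% with exact matches. Library size alone moved the median fold change of all arms from -0.00 to 0.13 and of the members from 0.01 to 0.12.

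The difference in the share of the cluster, 0.00363 percentage points, ran from -0.000895 to 0.0165 without 1 heart. The difference in the number of arms found, 0.5, ran from -0.167 to 1.33 without 1 heart and was -1.25 at a minimum of 1 CPM. The r between the stretches of the locus, 0.85, ran from 0.81 to 0.89 without 1 heart. It was 0.66 with library size alone, 0.60 without the leading arms and 0.94 over mean log2 levels. The r with the mir-17 to mir-92a group ran from 0.44 to 0.85 without 1 heart, and was -0.085 without the leading arms and -0.22 over mean log2 levels. The r with the mir-322 to mir-450 group ran from -0.88 to -0.091 without 1 heart and was 0.035 without the leading arms. The r with the mir-199 and mir-214 group ran from -0.71 to -0.25 without 1 heart. The median pairwise r, 0.27, ran from 0.16 to 0.35 without 1 heart and was 0.75 over the 3 arms with at least 100 CPM. The cause of these shifts was not tested.

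The labels give a replicate number and do not say that it pairs hearts. Deviations of same-numbered hearts correlated at 0.46, 0.30, 0.02 and -0.01. These were not compared with differently numbered hearts, so whether same-numbered hearts share a factor was not tested. With the number as a replicate block, edgeR called 0 members and 1 of all arms. On the arm balance limma then called 0 hairpins at a mean of 100 counts, with no member among those tested. At a mean of 20 the smallest member p under the block was that of mir-329 (limma unadjusted p = 0.0589, adjusted p = 0.433). The difference in share under the block was 0.00363 percentage points (exact sign permutation over 16 arrangements, p = 1.0, smallest possible 0.125, so it could not pass the threshold). Low counts and the unknown minimum per sequence limit what can be said of arms under about 1 CPM.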
